A study of Homo sapiens with 4 samples.

Results

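The oxidative stress pathway governed by the transcription factor NRF2 was examined in HIF1α-activated kidney tubule cells through 10 of its genes, among the 55859 genes found in both annotations used here. They were chosen by name as the regulators of the pathway and its commonly used targets, and all 10 were found: *NFE2L2* (which encodes NRF2), *KEAP1*, *BACH1*, *HMOX1*, *NQO1*, *GCLC*, *GCLM*, *TXNRD1*, *SRXN1* and *SLC7A11*. The question was how strongly these stress genes were expressed, and whether HIF1α peaks lay at their promoters or away from them. All samples were HK2 cells, an immortalized line of human proximal tubular epithelial cells, treated with 50 μM FG-4592 (roxadustat), an inhibitor of prolyl hydroxylases under which HIFα escapes degradation. The treatment time given in the methods of the study is 6 h. HIF1α ChIP-seq, which sequences DNA recovered with an antibody against HIF1α, gave 1 list of peaks for each of 2 replicates, and RNA-seq gave 1 table of transcript levels for each of 2 replicates. Untreated cells were not analysed here, so every value is a level or a position under FG-4592 and no change with treatment was computed.

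In unstressed cells KEAP1 holds NRF2 and directs it to degradation, and oxidants or electrophiles that modify KEAP1 let NRF2 accumulate. NRF2 then pairs with small MAF proteins at antioxidant response elements, sites from which BACH1, a haem-sensitive repressor, is displaced. *HMOX1*, which encodes the inducible haem oxygenase, is a known target of NRF2 and of hypoxia, protective in injured kidney tubules.

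Peak coordinates are on GRCh37, and start sites are those of GENCODE 44 mapped to that build. The first ChIP-seq replicate placed 3 peaks within 100 kb of a start site of these genes, 2 upstream of *HMOX1* and 1 upstream of *GCLC*. The sequences of 2 of these 3, the farther *HMOX1* peak and the *GCLC* peak, are shown as examples of peak regions near the pathway. They do not stand for the nearer *HMOX1* peak, which is not shown. The *GCLM* promoter, which had no peak but carries an antioxidant response element core, is shown with them. Capitals mark the core of the hypoxia response element (ACGTG or GCGTG), the core of the antioxidant response element (TGACNNNGC) and the AP-1 site (TGANTCA), on either strand. A match to TGANTCA can overlap one to TGACNNNGC. The farther *HMOX1* region, chr22:35746918-35747217, and the *GCLC* region, chr6:53516590-53516889, are the middle 300 bases of wider peaks on the plus strand. The promoter is the RefSeq sequence on GRCh38.p14, chr1:93909381-93909680, minus strand.
HMOX1 farther peak: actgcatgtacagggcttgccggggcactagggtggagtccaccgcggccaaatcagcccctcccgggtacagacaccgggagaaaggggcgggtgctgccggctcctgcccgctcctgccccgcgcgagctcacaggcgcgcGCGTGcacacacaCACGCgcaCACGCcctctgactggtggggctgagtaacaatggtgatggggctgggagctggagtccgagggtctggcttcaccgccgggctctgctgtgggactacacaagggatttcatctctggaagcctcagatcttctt
GCLC peak: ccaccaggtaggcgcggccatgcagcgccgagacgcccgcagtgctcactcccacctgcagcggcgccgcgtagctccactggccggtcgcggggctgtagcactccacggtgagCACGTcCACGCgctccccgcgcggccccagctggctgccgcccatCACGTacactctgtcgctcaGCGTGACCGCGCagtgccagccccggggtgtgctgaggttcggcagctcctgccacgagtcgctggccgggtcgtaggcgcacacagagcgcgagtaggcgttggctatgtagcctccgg
GCLM promoter: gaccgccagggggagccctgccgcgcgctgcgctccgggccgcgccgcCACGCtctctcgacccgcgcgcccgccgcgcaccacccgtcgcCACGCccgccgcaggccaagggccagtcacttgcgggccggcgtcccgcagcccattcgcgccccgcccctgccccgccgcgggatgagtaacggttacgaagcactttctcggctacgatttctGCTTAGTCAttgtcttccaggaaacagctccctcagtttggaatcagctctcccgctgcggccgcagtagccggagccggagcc

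The farther *HMOX1* region carried 3 hypoxia cores close together. A window of 1000 bp centred on that peak held 6 of them, against a median of 4 over the 1661 replicate 1 peaks on assembled chromosomes, with no antioxidant core and no AP-1 site. At least 6 were found in 30.9% of those peaks, so this number was not unusual. The sequence of the nearer *HMOX1* peak is not described here, so these counts do not speak for both *HMOX1* peaks. These matches are a description of the letters, and binding of NRF2 or BACH1 was not measured.

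The *GCLC* region held 4 hypoxia cores and 1 antioxidant core, which overlapped the last of them. Over its whole 454 bp the peak held 6 hypoxia cores, and its 1000 bp window held 14. At least 14 were found in 0.783% of replicate 1 peaks. The *GCLC* peak was thus richer in hypoxia cores than the farther *HMOX1* peak. Its printed region was also richer in G and C, 71.7% against 65.3%. Across all replicate 1 peaks, 89.3% contained a hypoxia core, 19.7% an antioxidant core and 16.4% an AP-1 site, so a hypoxia core in the printed peak regions is what most peaks of this list show. In replicate 2 the shares were 48.8%, 19.6% and 12.9%.

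Promoter sequences from RefSeq, 300 bases each, were matched for 8 of the 10 genes, all but *HMOX1* and *SLC7A11*. The hypoxia core was present in 5 of the 8 (*NFE2L2*, *NQO1*, *GCLC*, *GCLM* and *SRXN1*), against 48.4% of 35116 promoters. The antioxidant core was present in 2, *GCLM* and *TXNRD1*, against 13.3%, and the AP-1 site in 0, against 7.71%. The *GCLM* core, TGACTAAGC on the minus strand of the printed sequence, stands near its start site. The *TXNRD1* promoter in that table has 2 antioxidant cores, but the transcripts that start there were barely measured, the canonical one being listed at 0 in both libraries and all within 50 bp summing to a mean of 0.0147 FPKM. The promoters of *KEAP1* and *BACH1* had no match to any of the 3 motifs in this window. The *BACH1* window is not that of its main transcript: it stands 6333 bp downstream of the canonical transcript's start in the deposited tables, at a start site with a mean of 0.659 FPKM. The *NQO1* window stands 391 bp downstream of the canonical transcript's start in those tables, where 4 transcripts with a summed mean of 22.5 FPKM begin within 50 bp. For *NFE2L2*, *KEAP1* and *SRXN1* no transcript of the deposited tables starts within 50 bp of the RefSeq start, so 2 of the 5 hypoxia matches and the *KEAP1* window rest on starts that those tables do not list.

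The libraries were first compared with the labelled cell type. Levels are in FPKM, fragments per kilobase of transcript scaled to the mapped fragments of the library, as the authors estimated them, summed here over the transcripts of a gene. Of 12 proximal tubule markers, 3 reached 1 FPKM: *PAX8*, the most abundant, with a mean of 117, *GGT1* with 60.4 and *SLC5A2* with 2.14. The list summed to 186 in replicate 1 and 174 in replicate 2. The defining transporters and regulators *LRP2*, *SLC22A6*, *SLC22A8* and *HNF4A* were listed at 0 in both libraries, so much of the differentiated tubule programme was absent from these cultured cells.

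Of 6 epithelial markers 5 reached 10 FPKM, with *KRT19* the highest at 180.4 and *CDH1* at 0.295, and the list summed to 489 and 467. Of 6 mesenchymal markers 3 did so, *VIM*, *CDH2* and *COL1A1*, and the list summed to 1398 and 905. *VIM*, an intermediate filament gene that cultured epithelial lines also express, made up most of that sum, with 1294 and 802. The other mesenchymal markers, *COL1A2*, *PDGFRB* and *ACTA2*, had means of only 0.0201, 0.490 and 0.498 FPKM. These levels describe a line that expressed most of the epithelial list and part of the mesenchymal list. In bulk RNA fewer cells of a type and less RNA per cell cannot be told apart.

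Markers of some other cell types were also read. Of 6 leukocyte and macrophage markers 2 reached 1 FPKM, *CD68* (a lysosomal gene) with a mean of 32.5 and *CSF1R* with 4.57, and the list summed to 38.2 and 36.2. *PTPRC* and *CD163* were listed at 0. The 3 endothelial markers that could be matched of 4 summed to 0.0254 and 0, with *VWF* and *CDH5* under 1 FPKM and *KDR* at 0. Of the 4 distal nephron markers 3, *UMOD*, *SLC12A1* and *AQP2*, were at 0, and the remaining *SLC12A3* gave a sum of 0.0195 and 0.0268.

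The regulators of the pathway were expressed at modest levels. *NFE2L2* had 10.6 FPKM in replicate 1 and 13.2 in replicate 2 (11.9 ± 1.84, SD, n = 2). *KEAP1*, the sensor and adaptor that targets NRF2 for ubiquitination, had 19.2 and 26.9 (23.1 ± 5.49), the widest relative gap between libraries of the 10 genes, 33.7% of its mean. In each library *KEAP1* was above *NFE2L2*, 1.81 times in replicate 1 and 2.04 times in replicate 2. *BACH1*, the repressor, was the lowest of all, with 6.62 and 7.27 (6.95 ± 0.458).

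The *NFE2L2* signal came from several transcripts. A transcript that starts downstream of the canonical site took 45.6% of the gene's FPKM in replicate 1 and 44.4% in replicate 2, and the canonical transcript took 33.0% and 28.2%. Exons of *NFE2L2* share 3509 bp with *HNRNPA3*, an RNA-binding protein gene on the opposite strand with 74.7 and 77.1 FPKM, and 2037 bp with a non-coding RNA gene on the same strand (ENSG00000213963) with 3.18 and 4.17. How reads in the shared bases were divided was not tested. For *KEAP1*, the most abundant transcript took 46.4% and 51.2% and the canonical transcript 28.7% and 25.8%. *BACH1* was mainly its canonical transcript, 68.0% and 57.2%. No regulator thus had a single start site behind its level.

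Among the targets, *HMOX1* stood at 111 and 117 FPKM in the respective libraries (114 ± 3.85), which placed it at rank 425, within the top 0.761% of genes. It was the second of the 10 by level, also in TPM, by its largest transcript and in each library on its own. The canonical transcript carried 98.6% and 98.0% of it, so its level belonged almost entirely to 1 start site. *NQO1*, a quinone reductase, had 69.3 and 71.4 (70.3 ± 1.53), rank 765. In contrast to *HMOX1* its signal was divided, with 34.8% and 33.7% in the canonical transcript and 34.4% and 33.2% in the next.

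Thiol metabolism genes covered the widest range. *TXNRD1*, the cytosolic thioredoxin reductase, was the highest of all, with 218 and 228 FPKM (223 ± 6.66), rank 191 and 1.96 and 1.95 times *HMOX1* in the respective libraries. Of its 24 transcripts the most abundant took 63.4% and 65.9%. It starts at position 104680768 of chromosome 12, inside the gene and far from the canonical start site at 104609557. *SRXN1*, which restores overoxidized peroxiredoxins and has 1 annotated transcript, had 33.2 and 34.9 (34.1 ± 1.16). It shares 2292 exon bp with an overlapping protein-coding gene (ENSG00000270299) that was listed at 0.00814 and 0.0162.

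The glutathione branch was lower. *GCLC*, the catalytic subunit of the rate-limiting enzyme of glutathione synthesis, had 12.1 and 14.0 FPKM (13.0 ± 1.38), and *GCLM*, its modifier subunit, had 19.5 and 24.3 (21.9 ± 3.38). *GCLM* exceeded *GCLC* 1.62 times in replicate 1 and 1.73 times in replicate 2. *SLC7A11*, the cystine transporter subunit that supplies cysteine, had only 7.32 and 8.30 (7.81 ± 0.690). Both subunits of the enzyme were thus better expressed than the transporter that feeds it.

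The division of a gene's level among transcripts shifted between libraries for some of the 10 genes. A shorter transcript took 4.19% of *GCLM* in replicate 1 and 36.3% in replicate 2, with the canonical one at 94.4% and 62.6%. The leading transcript of *GCLC* took 40.9% and 55.1%, and the next-ranked of *BACH1* 14.5% and 32.0%. For *HMOX1* and *NFE2L2*, by contrast, the leading share given above moved little. Such splits rest on the authors' assignment of reads to overlapping transcripts, whose error the tables do not give.

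In order of mean level the genes were *TXNRD1*, *HMOX1*, *NQO1*, *SRXN1*, *KEAP1*, *GCLM*, *GCLC*, *NFE2L2*, *SLC7A11* and *BACH1*, a range of 32.1 times. *KEAP1* and *GCLM* overlapped between libraries, as did *GCLC* and *NFE2L2*, so their order is not settled by 2 libraries. *SLC7A11* and *BACH1* were separated by little, the lower *SLC7A11* value being 7.32 and the higher *BACH1* value 7.27. All other neighbours were apart in both libraries. The median of the 10 was 22.5 FPKM, against 21.7 over the 6337 genes with a mean of at least 10 and 0 over all genes. These sets are unlike, since only 8 of the 10 reached 10 FPKM. The effector enzymes *TXNRD1*, *HMOX1* and *NQO1* were thus the 3 genes above 50 FPKM, and no regulator reached that level.

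**Figure D1:**
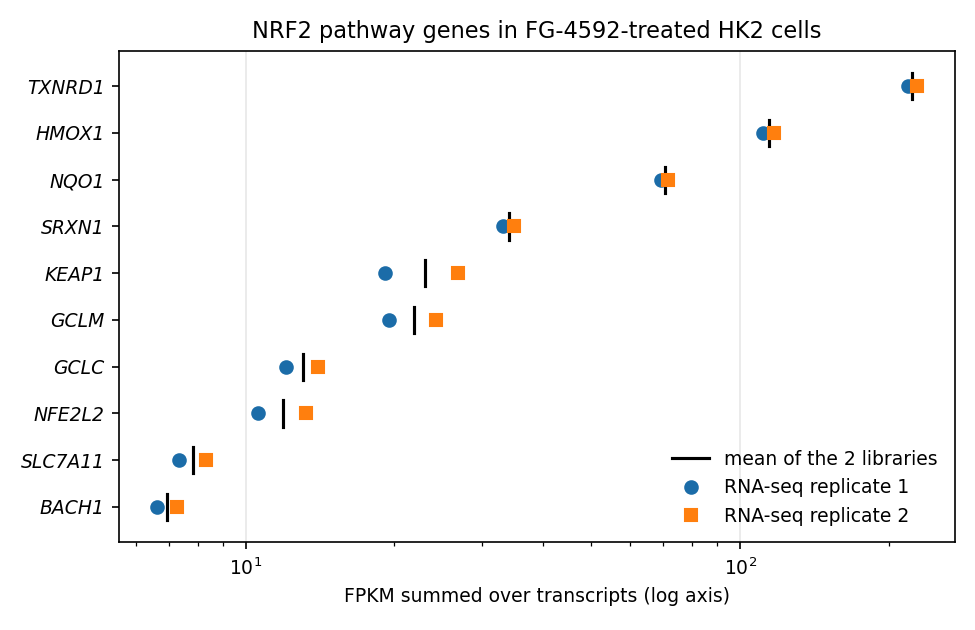
FPKM of each gene (log axis) in RNA-seq replicate 1 (circles) and replicate 2 (squares) of FG-4592-treated HK2 cells, with a line at the mean of both. *TXNRD1* is highest at a mean of 223 and *BACH1* lowest at 6.95, and the libraries of *KEAP1* and *GCLM* overlap.

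Every one of the 10 genes was slightly higher in replicate 2. Taken as log2 of replicate 2 over replicate 1 after adding 1 to each FPKM, the difference had a median of 0.14, against 0.00 over the same 6337 genes. The largest was that of *KEAP1*, 0.47, and the smallest that of *NQO1*, 0.04. None of the 10 differed more than 2-fold without a pseudocount, as 63 of the 6337 did. Of the 10 genes, 8 reached a mean of 10 FPKM, and their background below is that of these 6337 genes. Both libraries had the same treatment, so the ratios describe replicate spread, which may be technical.

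No gene of the 10 had a HIF1α peak within 1 kb of any annotated start site in ChIP-seq replicate 1, where 2.50% of all genes and 10.4% of genes with at least 10 FPKM had such a promoter peak. Replicate 2 is a different kind of list: 84.5% of its peak bases were in exons, against 32.9% in replicate 1. Of genes with 1 to 10 FPKM 31.4% had an exonic replicate 2 peak, of those with 10 to 50 FPKM 63.3% and of those with 50 to 200 FPKM 76.5%, so these peaks went with transcript level. Whether they reflect binding of HIF1α was not tested, and each replicate 2 count is a count of listed peaks only. The genes with a replicate 2 promoter peak were *KEAP1* and *BACH1*, 2 of 10, against 9.72% of all genes, and *KEAP1* alone of the 8 with at least 10 FPKM, against 28.6%. In both replicates there were 0, against 0.779% and 4.04%. Beside these shares, counts of 0 to 2 among 10, or of 0 or 1 among 8, are too small to set these genes apart.

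The *KEAP1* and *BACH1* calls lay at internal start sites with little or no measured transcript. At *KEAP1* the peaks at chr19:10602356-10602918 and chr19:10610165-10610669 spanned 3 internal start sites, 2 under the former with transcripts at mean levels of 0.101 and 0.985 FPKM and 1 under the latter at 0.249 FPKM. Both lay entirely in exons, with their centres in coding sequence. The canonical *KEAP1* start site was 3363 bp from the nearer of these. The *BACH1* peak, chr21:30698527-30699469, spanned the start of a transcript listed at 0, was centred in coding sequence and lay 27284 bp from the canonical start. Counted at the canonical start site alone, or at starts of transcripts with a mean of at least 1 FPKM, both chosen after seeing the data, 0 of 10 genes had a promoter peak in replicate 2. The 1 FPKM limit matters here, since 1 of the *KEAP1* transcripts falls just under it. No share over all genes was computed under either of these start site rules, so the count of 0 has no background. The other pathway genes below were not recounted in this way.

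Away from promoters, 2 of 10 genes, *HMOX1* and *GCLC*, had a replicate 1 peak within 100 kb of a start site, against 18.3% of all genes, and 2 of 8 against 35.1% at 10 FPKM or more. In replicate 2 there were 9 of 10, all but *SLC7A11*, against 64.9%, and 8 of 8 against 91.8%. In both replicates there were 2 of 10, *HMOX1* and *GCLC*, against 15.9%, and 2 of 8 against 33.6%. These counts are close to what genes of this level show, so it is the position of single peaks, not their number, that the following values describe.

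*HMOX1* (ENSG00000100292, chr22:35776354-35790207, plus strand) had the closest replicate 1 peak of the 10. It lay upstream, 8001 bp from the nearest *HMOX1* start site and 8736 bp from the canonical one. It spanned the start of a non-coding gene listed at 0 in both libraries, and 74.8% of its bases were in annotated exons, so it drops out when peaks with exon bases are left out. The nearest start of a gene with any measured level was that of *HMOX1*. The next were *MCM5*, a replication helicase gene with a mean of 60.8 FPKM, 27774 bp away, and *TOM1*, an endosomal trafficking gene with 13.7 FPKM, 27925 bp away. Position does not assign a peak to a gene, and contact between the peak and any promoter was not tested.

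The second *HMOX1* peak, chr22:35746881-35747253, was intergenic with 0% exon bases, 29101 bp from the nearest *HMOX1* start site. A *TOM1* start site was closer, at 6702 bp, but the peak lay beyond the end of *TOM1*. Distances to *TOM1* are from its nearest annotated start site, whose own transcript level was not examined. Replicate 2 overlapped neither peak. Its only peak within 100 kb of *HMOX1*, chr22:35743467-35743873, was centred at -33419 bp from the canonical start site, in the untranslated part of a *TOM1* exon, and held none of the 3 motifs. The 2 upstream *HMOX1* peaks therefore rest on 1 ChIP-seq replicate.

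The *GCLC* peak was the only one near these genes found in both replicates, at chr6:53516513-53516966 in replicate 1 and chr6:53516563-53516893 in replicate 2. It lay in a coding exon of *KLHL31*, a gene with 0.173 and 0.233 FPKM, 3104 bp from a *KLHL31* start site. The distance to *GCLC* (ENSG00000001084, chr6:53362139-53481768, minus strand) was 34745 bp from its most distal start site, whose transcript was listed at 0. From the canonical *GCLC* start site the distance was 106614 bp. With canonical starts alone, or starts of transcripts with at least 1 FPKM, the replicate 1 count within 100 kb was 1 gene, *HMOX1*. The share of all genes under these rules was not computed.

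**Figure D2:**
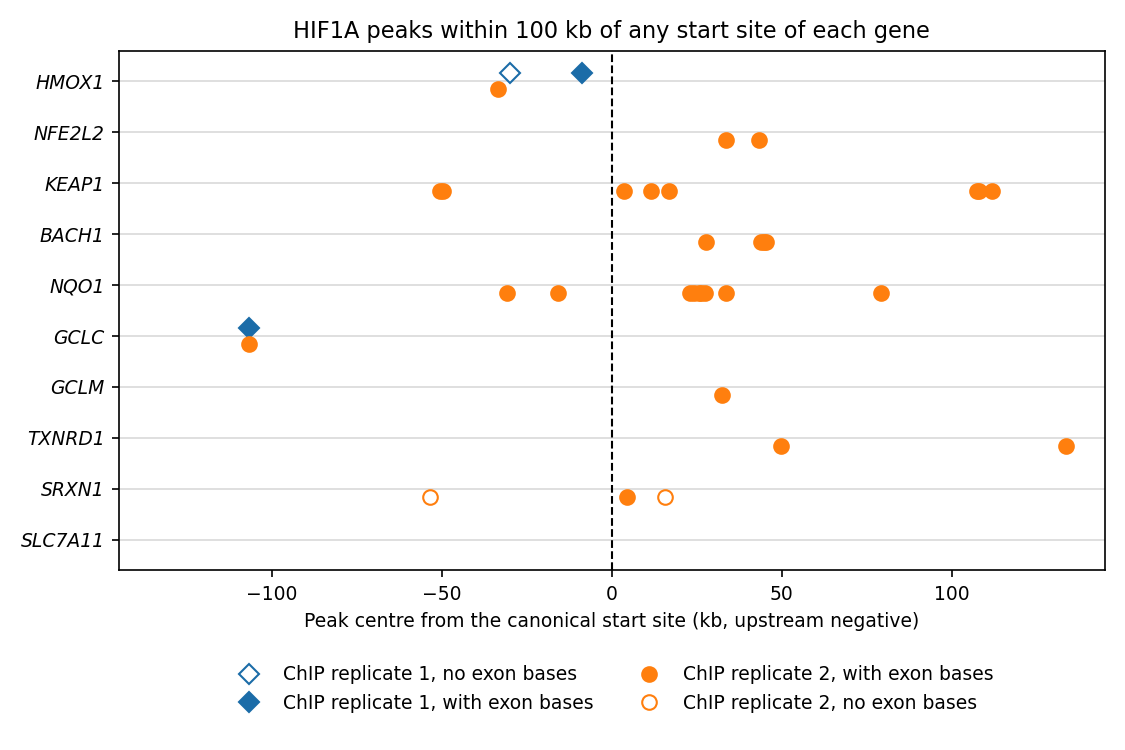
Centres of HIF1α peaks within 100 kb of any start site of each gene, in kb from its canonical start site (dashed line, upstream negative), for ChIP-seq replicate 1 (diamonds) and replicate 2 (circles); filled symbols contain exon bases. The 3 replicate 1 peaks are upstream of *HMOX1* and *GCLC*, and 29 of the 31 replicate 2 peaks contain exon bases.

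For the other 8 genes the nearest replicate 1 peak was between 155993 bp (*KEAP1*) and 818488 bp (*GCLM*) away, with *NQO1* at 223807 bp and *NFE2L2* at 225810 bp. Over the 10 genes the median distance was 224808 bp, against 230749 bp for genes with at least 10 FPKM and 530411 bp for all genes. In replicate 2 the medians were 14562, 4497 and 50271 bp. The 2 most highly expressed genes differed: *HMOX1* had the closest replicate 1 peak of the 10, while that of *TXNRD1*, at about 2 times its level, was 254452 bp away.

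**Figure D3:**
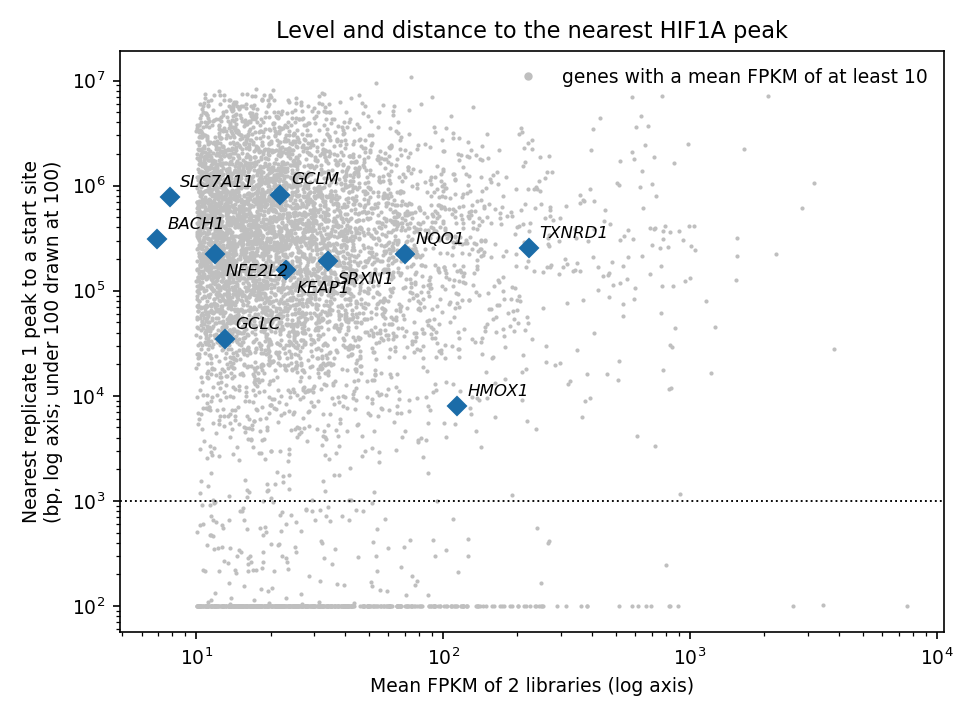
Mean FPKM of 2 libraries (log axis) against the distance from a start site to the nearest replicate 1 peak (log axis) for the 10 genes (diamonds) and for genes with a mean of at least 10 FPKM (grey points); the dotted line is the 1 kb promoter window. *HMOX1* is the closest of the 10 at 8001 bp, and none falls below the line.

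Of the 31 replicate 2 peaks near these genes, 29 contained exon bases and 12 were centred inside the gene itself. Across the whole list 18.0% of replicate 2 peaks were free of exon bases. Only *SRXN1* kept a replicate 2 peak within 100 kb when peaks with exon bases were left out. The share of all genes that do so was not computed, so this count has no background. The peaks followed the exons of these genes and of their neighbours. A hypoxia core was present in 13 of the 31, an antioxidant core in 7 and an AP-1 site in 4, against the shares over all replicate 2 peaks given above.

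Exonic replicate 2 peaks were found at all 3 regulators. They covered 38.8% of *KEAP1* exon bases in 3 peaks and 32.2% of *NFE2L2* in 2, against 12.2% over genes with 10 to 50 FPKM. At *BACH1* 4 peaks covered 24.3%, against 5.21% over genes with 1 to 10 FPKM. Both background shares include genes without an exonic peak. Of the targets at 10 to 50 FPKM, *GCLC* and *GCLM* had 0% covered and *SRXN1* 12.5%. At *NFE2L2* the wider peak, chr2:178084131-178088376, spanned 4246 bp, with its centre in exons of both *NFE2L2* and *HNRNPA3*. The 2 genes share 3509 exon bp, and *HNRNPA3* had a mean of 75.9 FPKM against 11.9 for *NFE2L2*. The 32.2% is therefore not a value of *NFE2L2* alone, and which gene the peak goes with was not tested. At *BACH1* the peaks other than that already described started 43654 bp or more downstream of the canonical start site, 1 centred in coding and 2 in untranslated sequence. *KEAP1* also had a peak in its untranslated exon sequence, chr19:10597072-10597388, and 5 in exons of the neighbours *CDC37*, a kinase co-chaperone gene with 56.5 FPKM, *ATG4D* and *KRI1*.

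Of the targets, *TXNRD1* had 22.2% of its exon bases covered, by 1 peak in untranslated exon sequence near the end of the gene (chr12:104742308-104743798). A further peak in the gene fell on the exon of *RPL18AP3*, a ribosomal protein pseudogene with a mean of 40.5 FPKM that lies inside *TXNRD1*. *SRXN1* had 12.5% covered by 1 peak, chr20:629116-629431, in its untranslated exon sequence, and 2 intergenic peaks 15477 and 53310 bp from its start site. *HMOX1*, *NQO1*, *GCLC*, *GCLM* and *SLC7A11* had no exonic peak in replicate 2. Such a peak was present in 16.5% of all genes and in 65.7% of those with at least 10 FPKM, and of the latter kind 4 of 8 genes here had one.

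*HMOX1* and *NQO1* are among the minority of genes at 50 to 200 FPKM without an exonic replicate 2 peak, 76.5% of such genes having one. Around *NQO1* the 9 replicate 2 peaks within 100 kb lay outside the gene, 7 of them on exons of *NFAT5*, an osmotic stress regulator with 4.21 FPKM, and the nearest, 15415 bp from an *NQO1* start site, on *NOB1*, a ribosome biogenesis gene with 36.1 FPKM. The nearest to *GCLM* was on *DNTTIP2*, 31178 bp from its start sites. Exonic replicate 1 peaks were found at 0 of the 10 genes, against 1.92% of all genes and 8.32% of those with at least 10 FPKM.

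The arrangement at *HMOX1*, a nearest replicate 1 peak beyond 1 kb and within 20 kb of a start site, was found in 3.72% of all genes and 6.93% of genes with at least 10 FPKM, and in 1 of the 10 genes. Of 797 other protein-coding genes with 0.5 to 2 times its level, 14.1% had a replicate 1 promoter peak and 6.90%, or 55 genes, had the *HMOX1* arrangement. The 5 of these closest to it in log2 mean FPKM over 2 libraries were *HIF1A* itself (mean 112, peak 5386 bp away), *HDLBP* (117, 11043 bp), *QSOX1* (109, 12924 bp), *PLOD1* (103, 4035 bp) and *FKBP8* (102, 13578 bp). Likeness here covers level and peak distance only. Thus *HMOX1* belonged to a minority of genes at its level, though not a rare one.

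A list of 10 reference HIF target genes showed what promoter peaks look like in these lists. In replicate 1, 7 of 10 had a promoter peak, in replicate 2 also 7, and 6 in both, and all 10 had a replicate 1 peak within 100 kb. Over all genes these shares were 2.50%, 9.72%, 0.779% and 18.3%. Over genes with at least 10 FPKM they were 10.4%, 28.6%, 4.04% and 35.1%. The exceptions in replicate 1 were *EGLN3*, *ADM* and *NDRG1*, with peaks 6940, 2406 and 24648 bp away. *HMOX1*, at 8001 bp, lay within the span of these 3, but that span is wide. Of genes with at least 10 FPKM, 6.93% had their nearest replicate 1 peak beyond 1 kb and within 20 kb. Such a distance therefore does not mark a gene as a HIF target.

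Other genes of the pathway were taken from 7 lists with 89 genes, of which 88 could be matched to peaks and 54 of these reached 10 FPKM. A replicate 1 promoter peak was present at 9 of the 88 (10.2%), a replicate 2 promoter peak at 16 (18.2%) and both at 4. The replicate 1 share stands beside 2.50% of all genes. Of the 54 genes with at least 10 FPKM, 7 had a replicate 1 promoter peak (13.0%), against 10.4% of all genes at that level, and 14 a replicate 2 promoter peak (25.9%), against 28.6%. The lists thus held promoter peaks that the 10 genes lacked in replicate 1, at shares near those of genes of similar level.

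Among 16 further regulators 2 had a replicate 1 promoter peak (12.5%), against 2.50% of all genes. Of the 10 regulators with at least 10 FPKM 1 had such a peak (10%), against 10.4% of all genes at that level. *MAFF*, a small MAF partner of NRF2, had 8.39 and 8.67 FPKM with a peak 62 bp from a start site. *RBX1*, the RING subunit of the ligase that KEAP1 recruits, had 48.0 and 47.4 with a peak at 35 bp. The other small MAF genes, *MAFG* and *MAFK*, had their nearest replicate 1 peaks 62103 and 25859 bp away. The most abundant regulator was *SQSTM1*, the autophagy receptor that binds KEAP1, with 220 FPKM in replicate 1 and 158 in replicate 2, and *BACH2* was the lowest with a mean of 0.443. *NFE2L1*, the paralogue of NRF2, had 75.9 and 91.8, above *NFE2L2* in both libraries, with a promoter peak in replicate 2 only, as *EP300* and *DPP3* had.

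The glutathione and thioredoxin lists differed in level, with medians of 16.2 and 89.7 FPKM. Of 22 glutathione genes, 12 of them at 10 FPKM or more, 1 had a replicate 1 promoter peak, *ABCC1*, an exporter of glutathione conjugates, with 16.9 and 15.3 FPKM. *GSTP1* was the highest, with 552 and 520, followed by *GPX4* and *GPX1*, and *GSTA1* was listed at 0. *SLC3A2*, the heavy chain that partners *SLC7A11* in the cystine transporter, had 67.7 and 66.6, against 7.32 and 8.30 for *SLC7A11*. Of 14 thioredoxin genes 2 had a replicate 1 promoter peak, *PRDX4*, the peroxiredoxin of the endoplasmic reticulum, with 171 and 143 FPKM and a peak in both replicates, and *SESN1*, with 7.69 and 9.03. Among genes with at least 10 FPKM, 1 of 11 thioredoxin and 1 of 12 glutathione genes had such a peak, 9.09% and 8.33%, against 10.4% of all genes at that level. The median of the thioredoxin list was the highest of the 7, led by *PRDX1* with 586 and 445 and *TXN*, the substrate of *TXNRD1*, with 228 and 244.

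The 6 NADPH genes, which supply the reducing power that these enzymes use, all exceeded 10 FPKM with a median of 69.8. *PGD*, of the pentose phosphate pathway, had 126 and 102 and was the only one with a promoter peak, present in both replicates. Of 14 detoxification genes 1 had a replicate 1 promoter peak, *NQO2*, the relative of *NQO1*, with 19.3 and 17.0 FPKM. Over all genes the replicate 1 share was 2.50%. Among genes with at least 10 FPKM, 1 of 6 NADPH (16.7%) and 1 of 5 detoxification genes (20%) had such a peak, against 10.4%. The detoxification list was uneven, from *AKR1B1* with 419 and 399 to *AKR1C2* with 0.0289 and 0 and *ALDH3A1* listed at 0 in both. *NQO1* and *NQO2* thus differed in both level and peak position.

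Of 13 haem and iron genes 2, *HMOX2* and *ABCB6*, had promoter peaks in both replicates. The shares over all genes and over genes with at least 10 FPKM were 0.779% and 4.04%. Of the 8 haem and iron genes at that level, 2 had a replicate 1 promoter peak (25%), against 10.4%. A replicate 2 promoter peak was present at 4 of these 8 (50%), against 28.6%. No test of these shares was made. *HMOX2*, the constitutive haem oxygenase, had 19.6 and 14.1 FPKM, a mean of 16.8 ± 3.92 against 114 for *HMOX1*, and *ABCB6*, a porphyrin transporter, had 15.7 and 16.1. Of the haem oxygenase pair it was therefore the less expressed gene that carried the promoter peaks. Downstream of haem breakdown, the biliverdin reductases *BLVRA* and *BLVRB* had 19.8 and 17.8, and 19.0 and 14.8. The ferritin genes *FTL*, with 3945 and 3718, rank 2 of all genes, and *FTH1*, with 569 and 505, which store the released iron, led the list and had promoter peaks in replicate 2 only. Among the 4 other antioxidant genes, *SOD1* was highest with 143 and 163 FPKM, and neither it, *SOD3* nor *CAT* had a promoter peak.

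**Figure D4:**
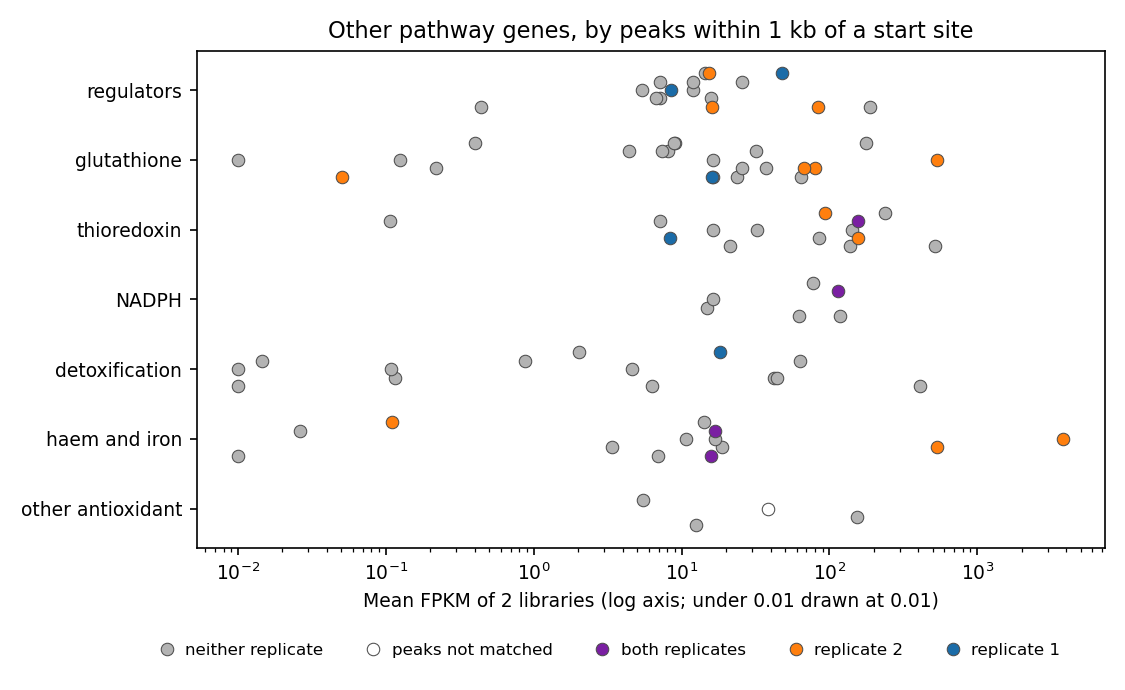
Mean FPKM of 2 libraries (log axis) for 89 other pathway genes by list, each point a gene, coloured by the replicates with a HIF1α promoter peak; the open point, *SOD2*, was not matched to peaks. Replicate 1 promoter peaks mark 9 of 88 genes, with means from 8.36 to 157 FPKM.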

How the data were processed

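The members and lists were chosen with earlier results of these data known. Per the study's methods and the submitters' processing notes, the authors trimmed the ChIP-seq reads, used Bowtie2 on hg19 (GRCh37), dropped reads with several mapping positions and ran MACS2 on each replicate. The deposited lists hold 1689 and 16953 positions with no score, so ChIP-seq depth is unknown. RNA-seq reads were mapped with HISAT2, per the study's methods to hg19, but the deposited coverage, FPKM and TPM tables, from StringTie 1.3.3 on GENCODE 27, have GRCh38 coordinates. They hold no counts. The bases covered, from coverage and transcript length, came to 4442 and 4202 Mb.

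FPKM was summed per Ensembl gene and joined to peaks by gene identifier, never by position. Peaks were compared with GENCODE 44 mapped to GRCh37. A promoter was 1 kb on either side of any annotated start site, distances ran from the nearest peak edge, and the canonical start site is the Ensembl one. Motifs were sought on both strands. With 1 treatment and 2 libraries no test was made. Genes named besides the 10 were list members with a promoter peak or among the highest or lowest 3 of a list, cell type markers, HIF reference genes, the 5 genes closest to *HMOX1* in level among those with its peak arrangement, the small MAF genes *MAFG* and *MAFK*, and genes at or next to a peak near the 10 or sharing exon bases with them; *MCM5*, *BLVRA* and *BLVRB* and these MAF genes were named after their values were seen. Alternatives covered windows, start sites, peak centres, exon bases, FPKM against TPM, pseudocounts and each replicate left out. The code was tested on simulated peaks and motifs. Software was Python 3.11.15, numpy 2.4.6, pysam 0.24.0, samtools 1.23.1 and matplotlib 3.10.9.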

Additional observations from a re-analysis of the deposited data

How the results depend on the processing

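*HMOX1* stayed second of the 10 genes by level under all 4 alternatives, and the median log2 ratio of the libraries ran from 0.14 to 0.16. With a 10 kb window promoter peaks numbered 1 (*HMOX1*) in replicate 1 and 4 in replicate 2. The replicate 2 count was 0 with the 5′ end of the gene record and, both chosen after seeing the data, with canonical starts or starts of transcripts of at least 1 FPKM. The count for both replicates ranged from 0 to 2 with a ChIP-seq replicate left out, since it then equals the other replicate's count. Within 100 kb, the replicate 1 count was 4 with 200 kb and 1 without exonic peaks, with canonical starts or with starts of transcripts of at least 1 FPKM, and the replicate 2 count was 1 without exonic peaks. Shares over all genes were not computed for the alternative windows, start sites or exon filter, so these counts have no background. The nearest *HMOX1* peak was 8736 bp from the canonical start, also added after seeing the data. In the central 200 bp, 4 replicate 2 peaks near the genes held a hypoxia core and 3 an antioxidant core, in place of 13 and 7, fewer because less sequence was searched; over all replicate 2 peaks the shares in that window were 26.5% and 7.52%. The largest transcript alone moved 7 of 10 mean FPKM values beyond 1 SD. No paired analysis was possible because no groups were compared. With 2 libraries an SD is imprecise, and without peak scores no stricter peak threshold could be applied.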
